A study of Mus musculus with 8 samples.

Results

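The miR-192, miR-194 and miR-215 family was measured in mouse kidney after ischemia-reperfusion injury (IRI) and after sham surgery. Its 7 members were chosen by name, as the mature miRNAs of a pair of gene clusters (Mir192 with Mir194-2, and Mir194-1 with Mir215). They are mmu-miR-192-5p, mmu-miR-192-3p, mmu-miR-194-5p, mmu-miR-194-1-3p, mmu-miR-194-2-3p, mmu-miR-215-5p and mmu-miR-215-3p, written below without the species prefix, and all 7 were among the 1881 mouse miRNAs with probes on the array. Of these, miR-192-5p, miR-192-3p and miR-194-5p were detected on 8 of 8 arrays and the other 4 on 0 of 8. The data were 8 single-colour miRNA microarrays, 4 from IRI kidneys and 4 from sham kidneys. Both groups were male C57BL/6 mice aged 9 weeks under isoflurane anesthesia. In IRI mice the right kidney was removed and the supply of the left kidney was clamped for 25 or 45 min, with harvest 12 or 24 h later. Sham surgery stopped at the midline incision and removed no kidney, so nephrectomy and injury cannot be told apart. Clamp and harvest times are not assigned to single IRI samples in the labels. Nor do the labels state that every sample came from a different animal, and p-values therefore cover the spread among these samples alone, which may be technical.

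miRNAs are short RNAs that pair through their seed (bases 2 to 8) with messenger RNAs and lower the output of those messages. miR-192 and miR-194 are abundant in epithelial cells of kidney tubule, intestine and liver, and hepatocyte nuclear factors as well as p53 are known to drive their primary transcripts in human cells. miR-192 has been studied in kidney disease for its link to TGF-beta signalling and to the ZEB repressors of the epithelial programme. Each precursor hairpin yields a 5p and a 3p strand, of which usually one is kept as the guide and the other is mostly degraded. In whole kidney RNA, fewer cells of a type and less RNA per cell cannot be told apart.

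The mature sequences are shown because they define which members can share targets and which could be confused by a probe. They come from RefSeq (GRCm38.p6, 7 of 7 members matched), with the seed in capitals. The first pair shares its seed, and no other mouse miRNA of the table has that seed.
miR-192-5p: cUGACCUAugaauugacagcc
miR-215-5p: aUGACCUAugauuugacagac
miR-194-5p: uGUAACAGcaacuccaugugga
miR-192-3p: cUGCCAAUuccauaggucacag
miR-194-1-3p: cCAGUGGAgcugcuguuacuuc
miR-194-2-3p: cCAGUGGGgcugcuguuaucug
miR-215-3p: uCUGUCAUucuguaggccaau
miR-192-5p and miR-215-5p were identical at 18 of 21 positions and differed by C1A, A12U and C20A, counted from the 5′ end with the base of miR-192-5p first. The 3p strands of the 2 miR-194 hairpins were identical at 18 of 22 positions. Counted from the 5′ end with the base of miR-194-1-3p first, they differed by A8G, C19U, U20C and C22G. The change at position 8 gave them different seeds. The seed of miR-194-2-3p was shared by miR-6926-5p, detected on 0 arrays, and by miR-7055-5p, detected on 4 of 4 IRI and 2 of 4 sham arrays. For miR-7055-5p the log2 change was 0.28 ± 0.23 (SE), with an adjusted p of 0.355 (limma). It was tested only because all 4 IRI arrays detected it, the group where its fitted value is higher.

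The 4 hairpins are shown with both mature strands in capitals, to place the strands that were read and those that were not. Mir194-2 and Mir192 lie 115 bases apart between the genes Atg2a and Ehd1, at chr19:6264643-6264728 and chr19:6264844-6264932 (GRCm38.p6, plus strand). Mir194-1 and Mir215 lie 195 bases apart within the span of Iars2, at chr1:185313319-185313385 and chr1:185313581-185313692 (GRCm38.p6, plus strand).
Mir194-2: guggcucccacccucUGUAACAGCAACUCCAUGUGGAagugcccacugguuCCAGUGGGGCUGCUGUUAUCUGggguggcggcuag
Mir192: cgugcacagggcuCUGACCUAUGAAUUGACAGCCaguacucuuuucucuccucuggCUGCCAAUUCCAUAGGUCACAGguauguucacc
Mir194-1: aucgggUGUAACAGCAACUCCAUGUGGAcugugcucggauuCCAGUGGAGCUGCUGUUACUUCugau
Mir215: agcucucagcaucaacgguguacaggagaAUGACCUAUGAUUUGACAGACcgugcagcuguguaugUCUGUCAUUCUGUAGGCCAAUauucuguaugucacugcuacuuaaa
The mature miR-194-5p is the same in Mir194-2 and Mir194-1, so its signal cannot be assigned to either cluster. Only the 3p strands separate the pair of miR-194 genes.

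Each member was read by 2 DNA probes of 15 to 19 bases, with 15 spots per probe, and every probe was complementary to its miRNA over its whole length. The probes of the look-alike pair are shown with capitals at the bases that do not pair with the other member of the pair.
miR-192-5p, probe 1: gGctgtcaaTtcataggt
miR-192-5p, probe 2: gGctgtcaaTtcataggtc
miR-215-5p, probe 1: gTctgtcaaAtcatagg
miR-215-5p, probe 2: gTctgtcaaAtcataggt
A probe for one of them thus had 2 mismatches to the other. The probes of miR-192-3p, shown since 1 base of length separates a readable from an unreadable probe, were these:
miR-192-3p, probe 1: ctgtgacctatggaatt
miR-192-3p, probe 2: ctgtgacctatggaattg

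The members specific to the Mir194-1 and Mir215 cluster lay at background. miR-215-5p, miR-215-3p and miR-194-1-3p, and also miR-194-2-3p from the other cluster, had 0 spots well above background of 30 on each of the 8 arrays. For miR-215-5p the unscaled signals of probe 1, averaged over spots, were -1.32, 2.27, -1.24 and 1.53 in IRI 1, 2, 3 and 18, against -2.01, -1.93, -1.90 and -2.32 in sham 1, 2, 3 and 6. The negative control spots of the same arrays averaged 2.56 to 4.15 in IRI and 2.23 to 3.74 in sham, and every one of these values lay below the mean of its own array. On these arrays probe 1 of miR-192-5p gave 954 to 1323 in IRI and 1262 to 1704 in sham. The miR-215-5p probes were thus not well above background on arrays where all spots of their near-identical relative were. Probe 2 of miR-194-2-3p gave 4.20, 2.79, 5.44 and 4.01 in IRI, against 7.70, 6.92, 6.24 and 3.95 in sham. These groups overlapped. The probe lay above the negative control mean of its array on 4 of 4 sham and 2 of 4 IRI arrays, but had 0 spots well above background on any array. No fold is given for the 4 undetected miRNAs, since neither group was well above background, and they did not enter the test.

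**Figure D1:**
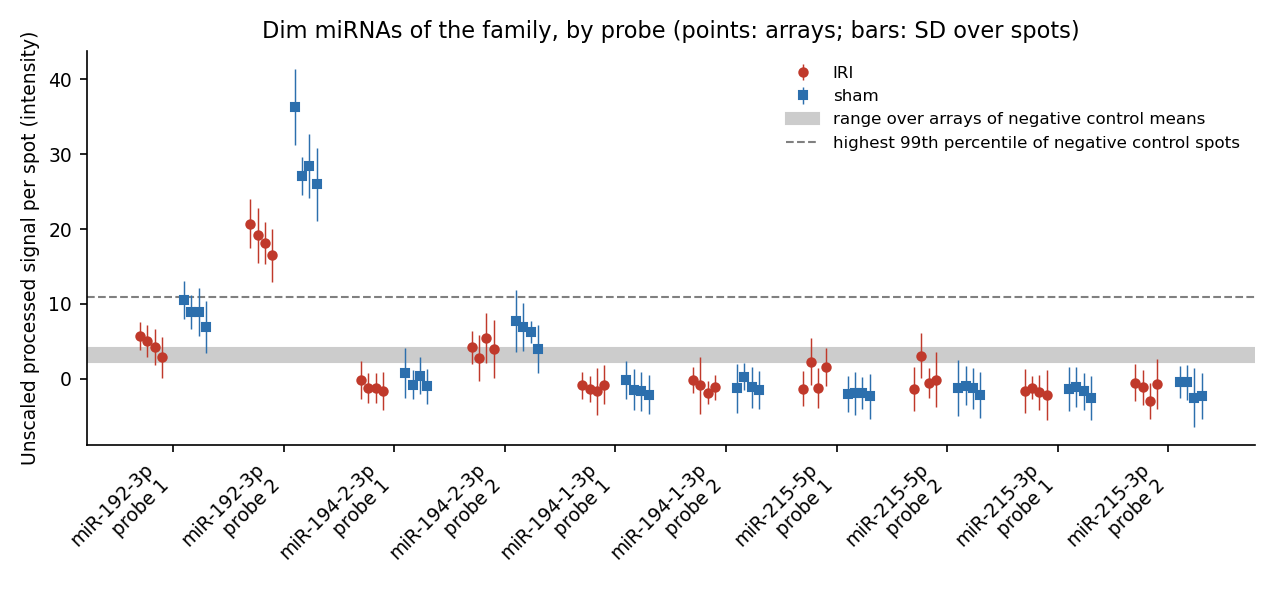
Unscaled processed signal of each probe (intensity, y axis) for miR-192-3p and the 4 undetected miRNAs, with 1 point per array, bars for the SD over spots, IRI in red circles and sham in blue squares. Probe 2 of miR-192-3p stands above the negative control spots on all 8 arrays, with IRI below sham, while the probes of the 4 undetected miRNAs lie near the band of negative control means.

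The arrays differed in overall signal. IRI arrays had 393 to 447 detected miRNAs and sham arrays 327 to 379, and the 75th percentile of signal was 445 to 562 in IRI and 356 to 456 in sham. All arrays lay on 1 slide, IRI in slide row 2 and sham in slide row 1, so row and group cannot be told apart, while every slide column (4 in all) paired an IRI with a sham array. Signals were therefore divided by the 75th percentile of each array ("scaled"), and falls below are relative to it unless called unscaled. Columns 1, 2 and 3 held the arrays numbered 1, 2 and 3 of both groups, and column 4 held IRI 18 and sham 6. With 4 arrays in a group, their number limits the precision.

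miR-192-5p, the guide strand of its hairpin, was lower in every IRI kidney than in every sham kidney. Its scaled signal was 2842, 2438, 2589 and 2476 in IRI 1, 2, 3 and 18, against 4318, 3790, 4513 and 4033 in sham 1, 2, 3 and 6. The groups did not overlap. The log2 change was -0.69 ± 0.08 (SE; 95% interval -0.87 to -0.50; adjusted p = 0.00075, limma), a fold of 0.621. With quantile normalization it was smaller and outside that interval, at -0.32 ± 0.07 (SE; adjusted p = 0.00821, limma). Both probes moved together, with log2 changes of -0.68 and -0.69. Before scaling the signals were 3374, 3058, 2667 and 2458 in IRI and 4393, 3725, 3732 and 3204 in sham, and the groups overlapped. Within each slide column the unscaled IRI value was the lower one, by 0.28 to 0.48 on the log2 scale. Unscaled, the log2 change of -0.38 ± 0.14 (SE) also lay outside the 95% interval above and was not called (adjusted p = 0.0947, limma). With slide column as a block, an alternative added after seeing the data, the unscaled fall was called (-0.38 ± 0.06, SE; adjusted p = 0.0175, limma).

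miR-194-5p, which either cluster can produce, showed a change of like size. It had scaled signals of 1322, 1120, 1120 and 1070 in IRI 1, 2, 3 and 18, against 2081, 1744, 1978 and 1783 in sham 1, 2, 3 and 6. The highest IRI value lay below the lowest sham value. The log2 change was -0.71 ± 0.09 (SE; 95% interval -0.93 to -0.50; adjusted p = 0.00104, limma), a fold of 0.61. Its probes gave log2 changes of -0.69 and -0.72. The unscaled signals were 1569, 1404, 1154 and 1062 in IRI and 2117, 1714, 1635 and 1416 in sham. They overlapped between groups but were lower in IRI within all 4 columns, by 0.29 to 0.50 on the log2 scale. Without scaling the change was -0.41 ± 0.17 (SE; adjusted p = 0.129, limma), outside the 95% interval above. With the column block the unscaled change was called (-0.41 ± 0.06, SE; adjusted p = 0.0156, limma).

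miR-192-3p, the passenger strand, had the largest fall of the 3 under the main scaling. Its scaled signals were 22.3, 19.3, 21.6 and 19.5 in IRI 1, 2, 3 and 18, against 46.0, 36.6, 45.1 and 41.4 in sham 1, 2, 3 and 6. There was no overlap, and there was none before scaling either, with 26.5, 24.2, 22.3 and 19.4 in IRI and 46.8, 36.0, 37.3 and 32.9 in sham. The log2 change was -1.03 ± 0.09 (SE; 95% interval -1.24 to -0.81; adjusted p = 0.0004, limma), a fold of 0.49. It was called without scaling as well (-0.72 ± 0.14, SE; adjusted p = 0.0143, limma), at a size outside that interval. The signal is dim. The longer probe had 12, 10, 12 and 7 of 15 spots well above background in IRI, against 15, 15, 15 and 13 in sham, while the shorter probe had 0 on every IRI array and 1, 0, 0 and 0 in sham. The scaled signals nevertheless exceeded the floor of 17.3 set for the log scale on all 8 arrays. The log2 change was -0.96 for the longer probe and -1.31 for the shorter one. With the brightest probe of each miRNA alone, the change was -0.87 ± 0.09 (SE; adjusted p = 0.00047, limma). The size also depended on the background correction: it was -0.34 ± 0.07 (SE) with normexp, which adds an offset of 50 to every spot, and -1.30 ± 0.16 (SE) after the negative control mean was subtracted, an alternative added after seeing the data. Both were called (adjusted p = 0.00511 and 0.00114, limma).

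**Figure D2:**
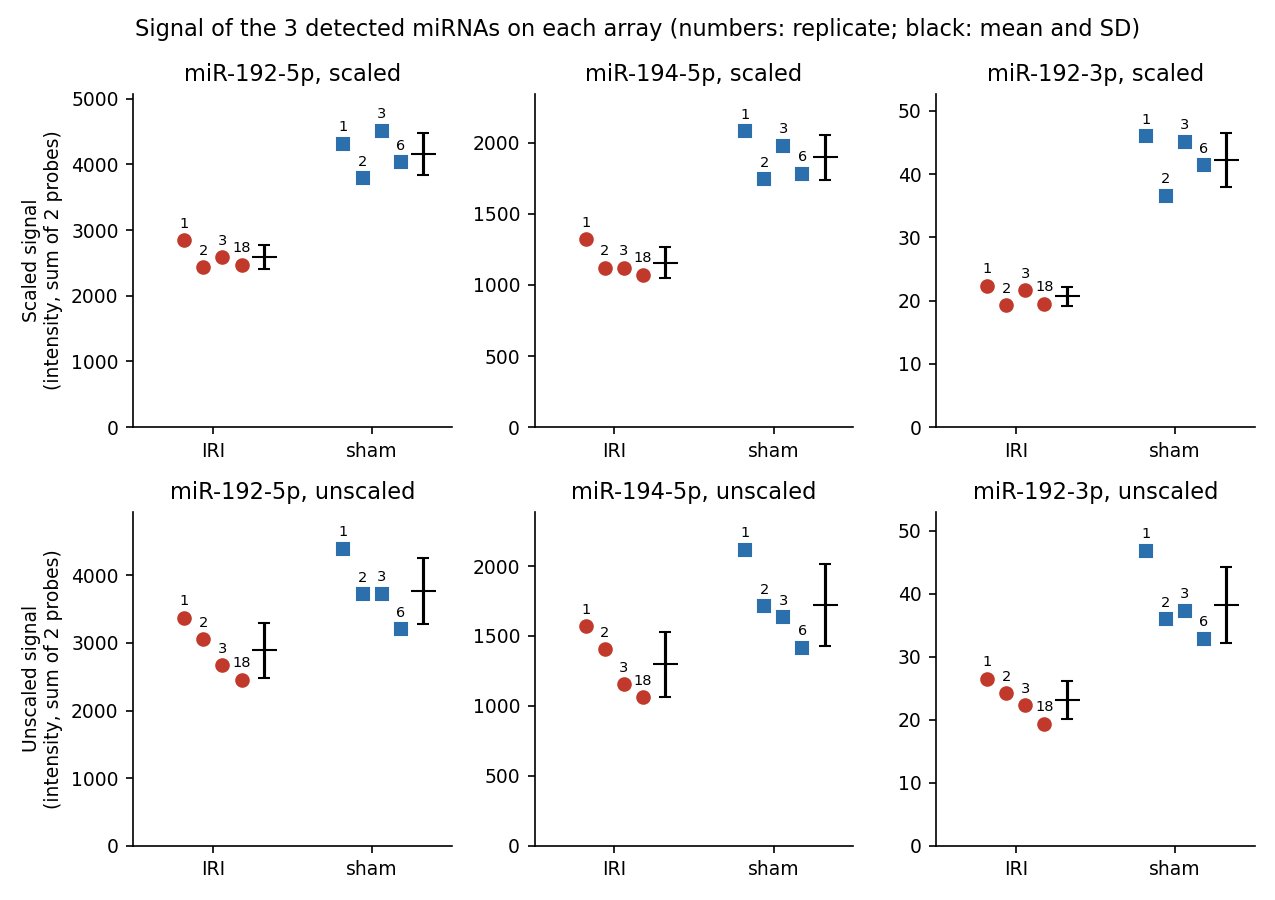
Signal per array (intensity summed over 2 probes, linear y axis from 0) of the 3 detected miRNAs, scaled in the upper row and unscaled in the lower row, with IRI left of sham, replicate numbers beside the points and the mean with SD in black. The scaled IRI values lie below all sham values for each miRNA, while unscaled values of miR-192-5p and miR-194-5p overlap and those of miR-192-3p do not.

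Of the 7 members, 3 passed the filter for testing (detection on all 4 arrays of at least 1 group), and 3 of 3 were called lower. In the same comparison 36.7% of the 379 tested miRNAs were called lower and 12.1% higher (limma, Benjamini-Hochberg, threshold 0.05), so being called lower was common. All 4 IRI values lay below all 4 sham values for these 3 and for 35.9% of the tested miRNAs, and above them for 11.9%. Unscaled, they lay below for 1 of the 3 and for 1.06% of the tested miRNAs. By size of the fitted change, miR-192-3p, miR-194-5p and miR-192-5p ranked 1, 5 and 7 from the lowest of 379, where the median of all tested miRNAs was -0.11. Without scaling 1 of the 3 was called lower, against 0.264% of tested miRNAs, and 14% were called higher. With the 2 control RNAs dmr_285 and dmr_31a, taken here as the spike-ins without a label that says so, as the scale, 1 of 3 was called lower, against 0.528%, and 19% were called higher. The median of all tested miRNAs turned to 0.17 without scaling and to 0.19 with the spike-ins. Between groups, dmr_285 differed by 0.05 and dmr_31a by -0.08 on the log2 scale (IRI minus sham). With slide column as a block, 3 of 3 were called lower both unscaled and with the spike-ins, against 3.17% of tested miRNAs in either case, and 21.4% were called higher unscaled and 25.9% with the spike-ins. The members kept a negative sign in every setting run.

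**Figure D3:**
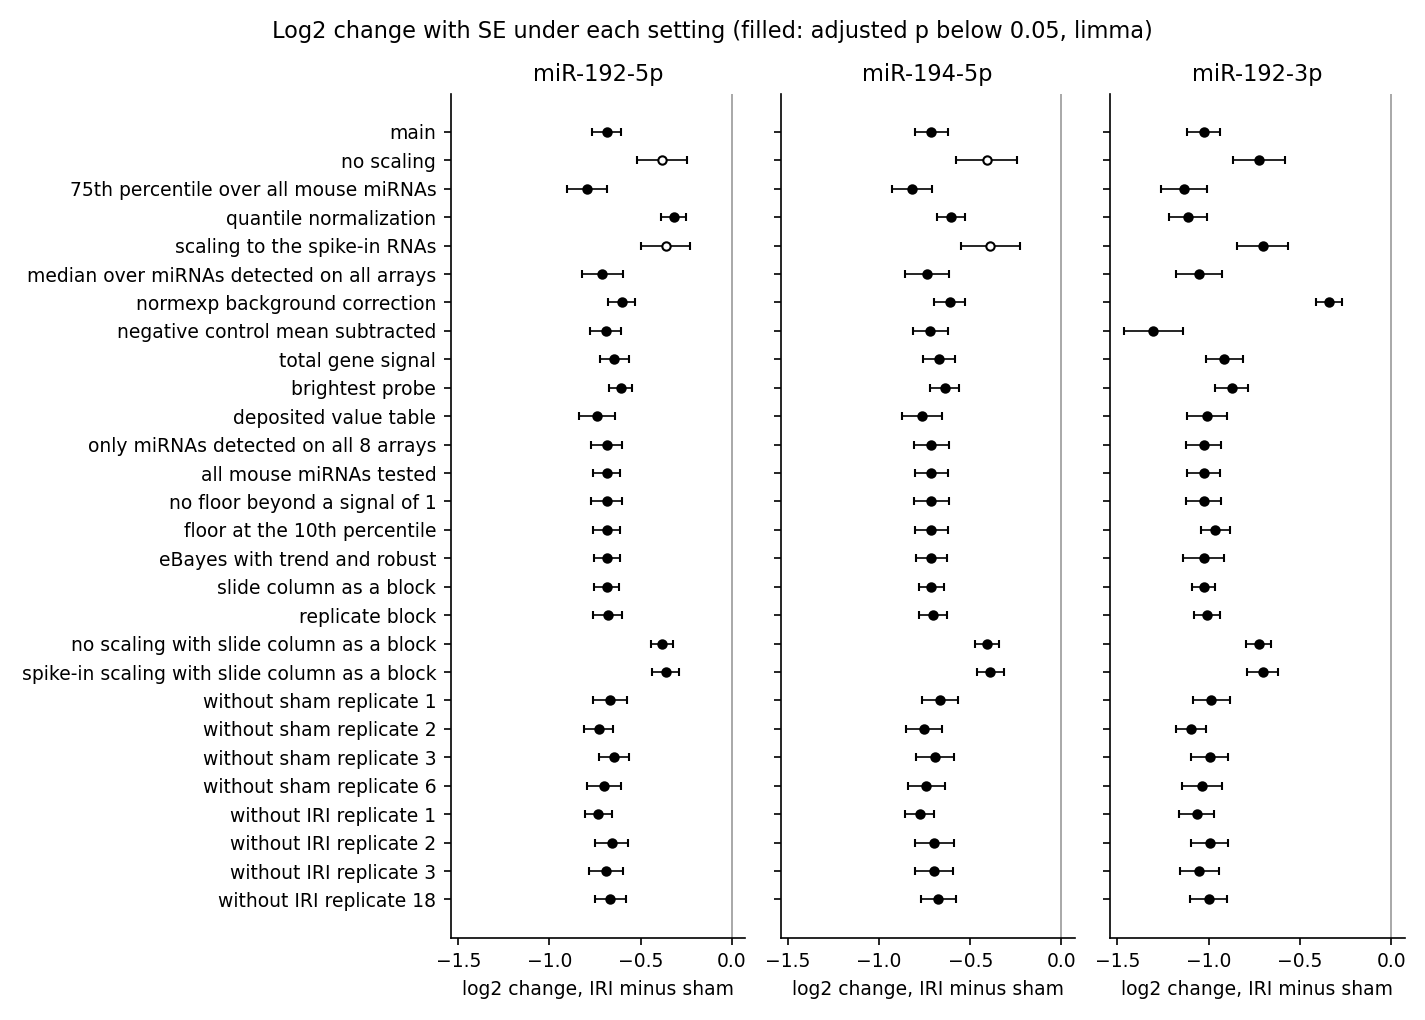
Log2 change (IRI minus sham, x axis) with its SE for the 3 detected miRNAs under each processing setting (rows), filled where the adjusted p was below 0.05 (limma). Every point lies left of 0, and the open points are miR-192-5p and miR-194-5p without scaling and with spike-in scaling.

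The next comparison asked whether the 3 miRNAs changed alike, from the difference of their log2 signals within an array, which no single scaling factor can alter. The level of such a difference also reflects the probes, so only its change is read. For miR-194-5p minus miR-192-5p the values were -1.10, -1.12, -1.21 and -1.21 in IRI 1, 2, 3 and 18, and -1.05, -1.12, -1.19 and -1.18 in sham 1, 2, 3 and 6. These overlapped, with means of -1.16 ± 0.06 over IRI arrays and -1.14 ± 0.06 over sham arrays (SD, n = 4; exact permutation test, two-sided, p = 0.486), so an unequal change was not detectable here. The sign of this small difference turned to 0.0011 without sham replicate 1, and with quantile normalization it was -0.29 (exact permutation test, adjusted p = 0.0286). For miR-192-3p minus miR-192-5p, the strands of 1 hairpin, the values were -6.99, -6.98, -6.90 and -6.99 in IRI, and -6.55, -6.69, -6.64 and -6.61 in sham. They did not overlap. The 3p strand was lower relative to the 5p strand by 0.34 on the log2 scale in IRI (two-sided exact permutation p = 0.0286, which is the lowest value that 70 assignments of 8 arrays allow, and 0.0429 adjusted over 3 pairs). miR-192-3p minus miR-194-5p gave -0.32 with the same p-values (exact permutation test). Both of these turned sign with normexp, to 0.26 and 0.27 (exact permutation test, adjusted p = 0.171 and 0.214), a setting whose offset exceeds the signal of miR-192-3p itself. With the brightest probe of each miRNA alone they were smaller, at -0.26 and -0.23 (exact permutation test, adjusted p = 0.0429 for each). Quantile normalization gave larger differences, at -0.79 and -0.51 (exact permutation test, adjusted p = 0.0286 for each). So did negative control subtraction, added after seeing the data, at -0.61 and -0.59 (exact permutation test, adjusted p = 0.0429 for each). The size thus depended on the processing. The other 6 pairs fixed for this comparison held an undetected member and were not compared.

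The members were set beside 18 other miRNAs of kidney epithelium, chosen strands of the miR-30, miR-200, miR-10, miR-196, miR-190, miR-203 and miR-204 families. Other tested strands of these families were not on the list. Named after their values were seen, they include miR-190b-5p at 0.18 ± 0.22, not called, and miR-30c-2-3p at -0.50 ± 0.07 (SE), called lower. Of these 18, all tested, 16 were called lower and 0 higher, with a median log2 change of -0.43. Over all tested miRNAs 36.7% were called lower, and the median was -0.11. The 2 of the 18 that were not called, named after their values were seen, were miR-141-3p at -0.06 ± 0.08 and miR-200c-3p at 0.10 ± 0.08 (SE). The 3 brightest were miR-30a-5p, miR-30c-5p and miR-200b-3p. The miR-30 family is abundant in tubule and podocytes, and miR-200b-3p represses the ZEB factors. The scaled signal of miR-30a-5p averaged 6789 ± 402 over IRI arrays and 9115 ± 689 over sham arrays (SD, n = 4). Its limma log2 change was -0.42 ± 0.08 (SE), with an adjusted p of 0.00315. The changes of miR-30c-5p and miR-200b-3p were both near this, at -0.45 ± 0.08 and -0.45 ± 0.07 (SE). Without scaling 0 of the 18 were called lower, with or without the column block (limma), and with spike-in scaling 0 were, or 1 with that block. With quantile normalization 9 of the 18 were called lower. With replicate number as a block, over the 6 arrays numbered 1, 2 and 3, 7 were (limma).

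**Figure D4:**
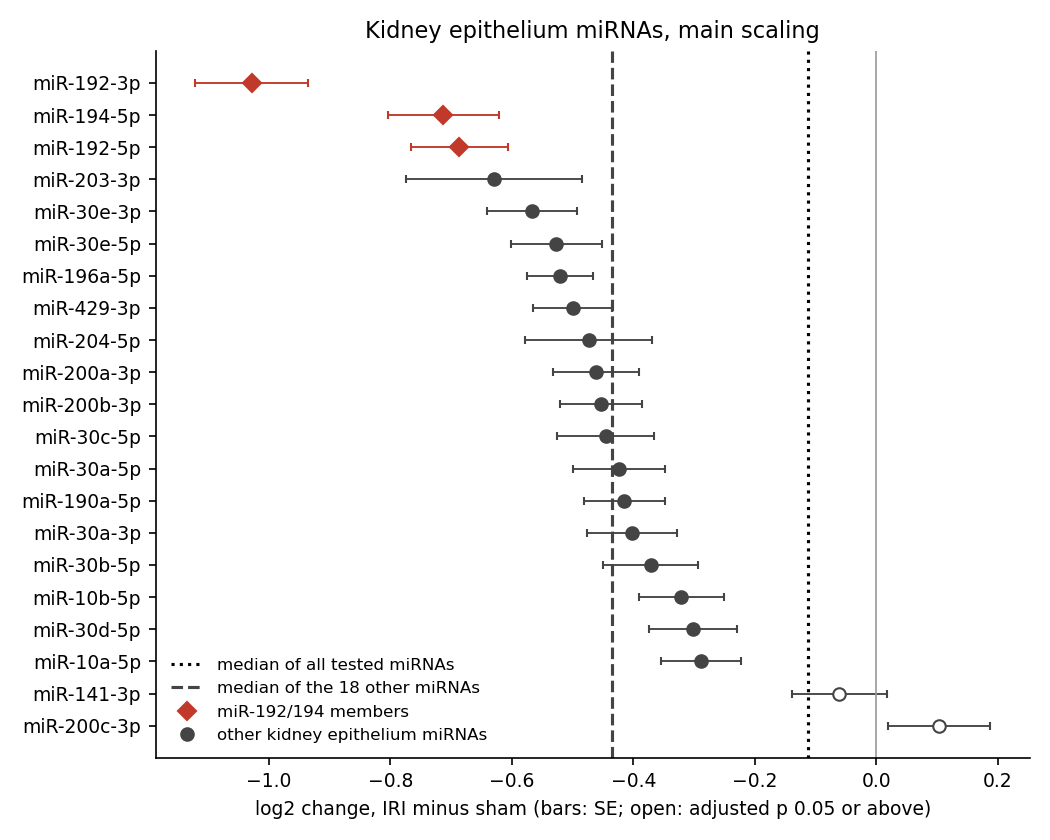
Log2 change (IRI minus sham, x axis, with SE) of the 3 detected family members (red diamonds) and 18 other kidney epithelium miRNAs (grey circles), with the median of the 18 at -0.43 and of all tested miRNAs at -0.11. The 3 red points lie left of all others, and the open circles, not called, are miR-141-3p and miR-200c-3p.

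Within arrays, miR-192-5p and miR-194-5p fell further than each of these 3 brightest miRNAs, a comparison added after the changes were known. Larger falls in the same list were not compared in this way. Named after their values were seen, they include miR-203-3p at -0.63 ± 0.15, miR-30e-3p at -0.57 ± 0.07 and miR-30e-5p at -0.53 ± 0.07 (SE). miR-192-5p minus miR-30a-5p was -1.36, -1.49, -1.28 and -1.44 in IRI 1, 2, 3 and 18, against -1.14, -1.14, -1.12 and -1.11 in sham 1, 2, 3 and 6. The sham values sat close together and all IRI values were below them, a change of -0.26 in the log2 difference. The changes were -0.24 against miR-30c-5p and -0.23 against miR-200b-3p. For miR-194-5p they were -0.29, -0.27 and -0.26 against miR-30a-5p, miR-30c-5p and miR-200b-3p. None of these 6 differences overlapped between groups, and each had p = 0.0286 (exact permutation test, two-sided), which is also the value adjusted over the 6 pairs. The one against miR-30a-5p for miR-192-5p was -0.08 with quantile normalization (exact permutation test, adjusted p = 0.4). That of miR-194-5p against miR-200b-3p missed the threshold without sham replicate 1, 2 or 3 or without IRI replicate 18 (-0.22, -0.28, -0.25 and -0.19), and that of miR-192-5p against miR-30c-5p without sham replicate 3 or 6 (-0.24 in both), each with an adjusted p of 0.0571 (exact permutation test).

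**Figure D5:**
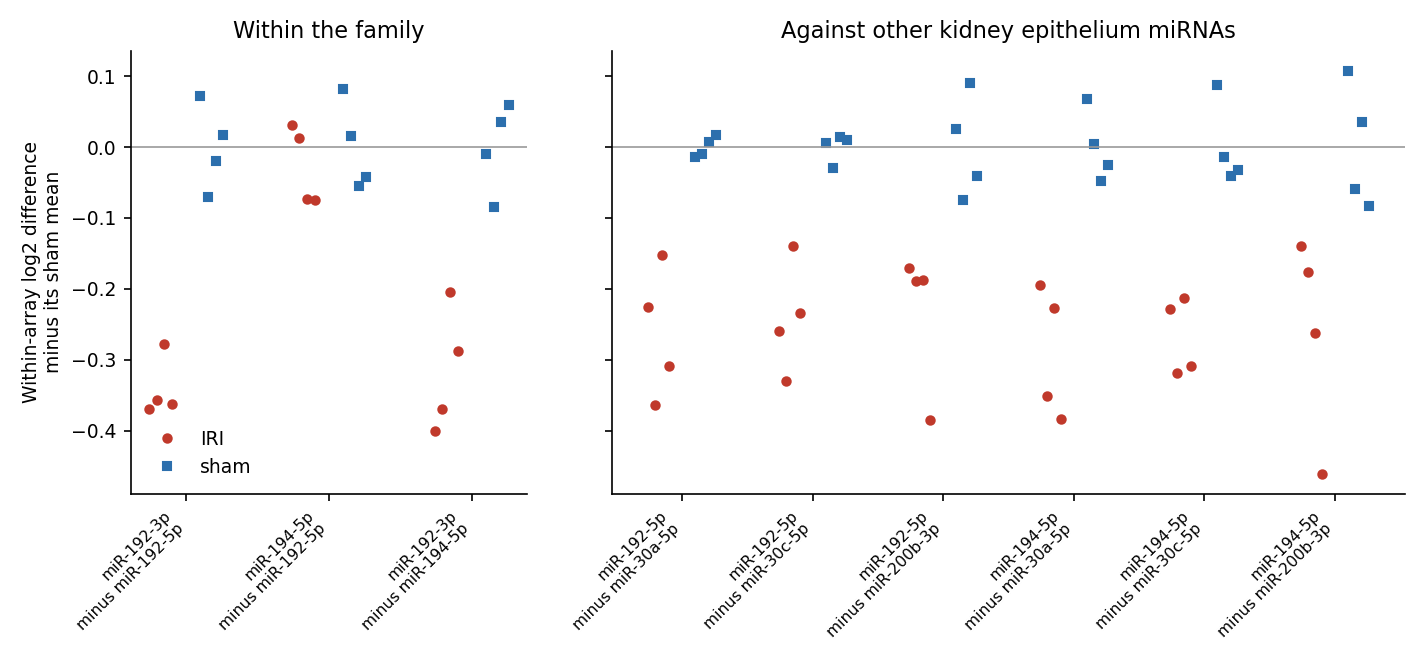
Log2 difference of 2 miRNAs within each array, minus its sham mean (y axis), for 3 pairs of family members and 6 pairs of a member with another kidney epithelium miRNA, IRI in red circles left of sham in blue squares. The groups overlap only for miR-194-5p minus miR-192-5p.

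Most of the other tested miRNAs linked to p53 were called lower, and those linked to hepatocyte nuclear factors did not pass the filter for testing. Of 9 miRNAs linked to p53, 7 were tested, 5 were called lower and 1 higher, with a median of -0.44. Over all tested miRNAs 36.7% were called lower, with a median of -0.11. The lower calls of miR-143-3p and miR-145a-5p are also counted in the fibroblast and mural list below. miR-107-3p, of the miR-15/107 seed group, had a log2 change of -0.69 ± 0.08, miR-16-5p, a cell cycle regulator, of -0.44 ± 0.08, and miR-34a-5p, a direct p53 target, of -0.55 ± 0.11 (SE). The call in the higher direction was that of miR-34c-5p, named after its value was seen. It passed the filter only through the IRI arrays, where it is high, and its sham mean lay below the floor of 17.3, so the call carries no weight as a count. It was detected on 4 of 4 IRI and 0 of 4 sham arrays with scaled signals of 22.5 ± 1.65 over IRI and 15.0 ± 2.84 over sham arrays (SD, n = 4). Of the miRNAs linked to hepatocyte nuclear factors, miR-802-5p and miR-122-5p were each detected on 1 array and miR-122-3p on 0, so none was tested.

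Some markers of other cell types also differed between the groups, and their part in the falls was not tested. Beside the counts below stand 36.7% called lower and 12.1% called higher over all 379 tested miRNAs (limma). The leukocyte and the fibroblast and mural counts are near those shares and are not read as a result about those cells. Of 4 erythroid miRNAs, 3 were tested and called higher, of which miR-144-3p (detected on 4 of 4 IRI and 2 of 4 sham arrays) and miR-486a-5p (4 of 4 IRI and 0 of 4 sham) passed the filter only through IRI, where they are high. The list had a summed scaled signal of 2948 to 4100 in IRI and 43.0 to 904 in sham, led by miR-451a. Of 6 leukocyte miRNAs, 1 was called higher, the myeloid miR-223-3p, with a log2 change of 1.53 ± 0.15 (SE). The other 2 brightest, miR-142a-3p and miR-342-3p, had changes of 0.29 ± 0.16 and -0.14 ± 0.13 (SE). The leukocyte sum was 814 to 1173 in IRI and 622 to 782 in sham. The endothelial miR-126a strands were both called lower, miR-126a-3p at -0.32 ± 0.07 and miR-126a-5p at -0.37 ± 0.09 (SE), and their sum was 3836 to 4321 in IRI and 4623 to 5333 in sham. Of 6 fibroblast and mural miRNAs, 3 were called lower, with a sum of 1272 to 1988 in IRI and 2107 to 2352 in sham. Its brightest were miR-143-3p at -0.43 ± 0.12, called, miR-199a-3p at -0.37 ± 0.15, not called, and miR-199b-5p at -0.51 ± 0.18 (SE), called. Intestine, where the family is also abundant, was checked with miR-31-5p, miR-375-3p and miR-203-3p. miR-375-3p was detected on 0 arrays, miR-31-5p on 4 of 4 IRI and 0 of 4 sham arrays, and miR-203-3p on all 8. The log2 change of miR-203-3p was -0.63 ± 0.15 (SE), a lower call also counted in the kidney epithelium list. For miR-31-5p it was 0.40 ± 0.14 (SE), called higher. miR-31-5p passed the filter only through IRI, where it is high, and its sham mean of 14.4 lay below the floor of 17.3. Of 9 miRNAs that mark liver, muscle, brain or pancreas, 6 were detected on 0 arrays and 2 were tested, miR-1a-3p, called lower at -0.54 ± 0.11, and miR-9-5p at 0.13 ± 0.15 (SE), not called.

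Profiles most like those of the members were sought among the 317 miRNAs detected on all 8 arrays, as the root mean square difference of log2 signals over the 8 arrays after each profile was centred. All points share the arrays, their scaling and the group difference, so the measure is a description. Nearest to miR-192-5p were miR-185-5p (0.041), miR-365-3p (0.049), miR-107-3p (0.049), miR-101a-3p (0.056) and miR-652-5p (0.057), against a median of 0.289 over the 316 others. miR-194-5p lay at 0.053 from miR-192-5p, with 3 miRNAs nearer. Nearest to miR-194-5p were miR-101a-3p (0.035), miR-365-3p (0.050), miR-185-5p (0.053), miR-101c (0.066) and miR-193a-3p (0.071). The distances of miR-192-3p were larger. Its nearest non-members were miR-3968 (0.155), miR-365-3p (0.171), miR-193a-3p (0.172), miR-185-5p (0.172) and miR-107-3p (0.191), against a median of 0.454 over the 316 others. It lay 0.171 from miR-194-5p, with 2 miRNAs nearer to it, and 0.177 from its own 5p strand, with 5 nearer. Seen from miR-192-5p, 77 miRNAs were nearer than miR-192-3p.

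The authors' deposited table gave the same order of groups. In the authors' deposited table miR-192-5p had ratios of 0.802, 0.721, 0.864 and 0.688 in IRI 1, 2, 3 and 18, against 1.35, 1.28, 1.34 and 1.16 in sham 1, 2, 3 and 6. For miR-194-5p the authors' deposited table had 0.853, 0.758, 0.855 and 0.680 in IRI, and 1.48, 1.35, 1.35 and 1.17 in sham. For miR-192-3p it had, in the authors' deposited table, 0.668, 0.613, 0.794 and 0.626 in IRI, and 1.51, 1.26, 1.39 and 1.27 in sham. None of the 3 overlapped between groups on that scale. A higher ratio means more signal there. For each of the 3, the highest IRI and the lowest sham ratio lay equally far from 1 on the log scale. Each was thus centred on its median over the arrays. The ratios follow the scans' total gene signals up to a factor for each array, and the rule behind that factor stays unknown. Without it, the total gene signals overlapped between groups for all 3. For miR-192-5p they were 928 in IRI 1 and 790 in sham 2. The lack of overlap in the ratios thus rests on that factor.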

How the data were processed

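Total RNA including small RNA from 30 mg of kidney, 100 ng labelled with Cy3, was, per the labels' protocols, hybridised to Agilent arrays read in 1 colour. The authors' deposited scans give a linear intensity for each spot. Agilent Feature Extraction 12.0.3.1 produced them (submitters' processing notes) and subtracted a fitted background surface, without normalization between arrays, per the file headers. A linear ratio for each miRNA is also deposited; how the authors derived it was not given. Differences between arrays in it followed those of the scanner files' total gene signals only up to a separate factor for each array. Its medians were 0.658, 0.646, 1.16 and 0.749 for IRI and 0.859, 1.23, 1.29 and 1.30 for sham; it served as an alternative.

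For each probe the mean processed signal of its spots was taken, outlier spots left out, and the probes of a miRNA were summed. Each array was brought to a common 75th percentile, computed from the 317 miRNAs that all arrays detected (gIsGeneDetected). Values under 17.3, the 5th percentile of detected signals, were set to it before log2 was taken. limma 3.58.1 in R 4.3.3 fitted 379 miRNAs (Benjamini-Hochberg, 0.05). The fit was tested on simulated data, where it recovered 25 of 40 changes of 1.5-fold and 20 of 20 changes of 2-fold. It made 0 false calls among 319 unchanged miRNAs. A change of 1.5-fold can thus be missed. Members, lists, pairs and alternatives were chosen with earlier results of these data known. Named are all members, up to 3 of the brightest tested members per list, the 5 nearest profiles and miRNAs sharing a seed. Alternatives covered scaling, background, value per miRNA, filters, floor, the variance model, blocking and the removal of single arrays. The negative control subtraction, the unscaled and spike-in fits with a column block, and the 6 pairs with other kidney epithelium miRNAs were added after seeing the data. No 2 arrays were identical (0 pairs). Array annotation is on mm9, a genome of which was not used here; RefSeq coordinates are on GRCm38.p6.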

Additional observations from a re-analysis of the deposited data

Results flagged for a closer look

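Among 32 groups of 4 values examined (7 members and 9 pairs, in IRI and in sham), 2 held an array set apart by Dixon's criterion, where chance gives about 1 in 20. IRI replicate 3 had a miR-192-3p minus miR-192-5p difference of -6.90 on the log2 scale, the other IRI arrays lying between -6.99 and -6.98. IRI replicate 18 had a miR-192-5p minus miR-200b-3p difference of -0.17, the other IRI arrays lying between 0.02 and 0.04.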

How the results depend on the processing

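All 27 other settings kept the negative sign of the 3 tested members, with log2 changes of -0.79 to -0.32 (quantile normalization) for miR-192-5p, -0.82 to -0.39 for miR-194-5p and -1.30 to -0.34 for miR-192-3p. miR-192-3p stayed called in all 27, the other two in 25 each. The calls ended without scaling (miR-192-5p -0.38, miR-194-5p -0.41) and with spike-in scaling (-0.36, adjusted p = 0.0904, and -0.39, adjusted p = 0.127, limma). Over all tested miRNAs, 139 were called lower and 46 higher, against 1 and 53 unscaled, 2 and 72 scaled to the spike-ins, 12 and 81 without scaling but with slide columns as a block, 12 and 98 with spike-ins and that block, 90 and 21 with all 1881 miRNAs tested, 159 and 18 with normexp, and 50 and 17 with the replicate block. Leaving out 1 array gave 114 to 145 lower and 36 to 62 higher. It gave log2 changes of -0.73 to -0.65 for miR-192-5p, -1.10 to -0.99 for miR-192-3p and -0.78 to -0.67 for miR-194-5p, all called. For the pairs it gave -0.37 to -0.32 for miR-192-3p minus miR-192-5p, -0.0455 to 0.0011 for miR-194-5p minus miR-192-5p and -0.35 to -0.29 for miR-192-3p minus miR-194-5p. With normexp the pairs with miR-192-3p turned to 0.26 and 0.27, and with quantile normalization miR-194-5p minus miR-192-5p became -0.29; the cause was not tested. Deviations of same-numbered arrays (1, 2 and 3) correlated at -0.16, -0.20 and 0.24 over miRNAs, so the numbers were not taken to pair the samples. Same-numbered arrays also shared a slide column, so the column block joined the same arrays. It further joined IRI 18 with sham 6, whose deviations correlated at 0.50. Arrays of different columns came near this, at 0.40 for IRI 1 with sham 2 and 0.41 for IRI 2 with sham 1. All these deviations are of scaled signals. A replicate block over the 6 arrays numbered 1, 2 and 3 left the members called (-0.68, -0.70 and -1.01 for miR-192-5p, miR-194-5p and miR-192-3p). For the pairs, differences within numbers were -0.33 for miR-192-3p minus miR-192-5p and -0.30 for miR-192-3p minus miR-194-5p, each with p = 0.25, the smallest that 8 sign flips allow (exact sign-flip test). Low signal limits miR-192-3p and the 4 undetected members.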
